A study of Mus musculus with 6 samples.

Results

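Foxm1 encodes the forkhead transcription factor FOXM1, and it was examined together with 9 genes whose proteins carry cells through mitosis: the kinase genes Plk1, Aurka, Aurkb, Bub1, Ttk, Nek2 and Cdk1, the checkpoint gene Bub1b and the cyclin gene Ccnb1. The 10 genes form a set defined by name and function, chosen with earlier results of these data known, and each matched a single identifier among the 55487 genes counted. Bulk RNA sequencing counts came from 6 cultures of C57BL/6 mouse skin cells labelled as endothelial cells (ECs), of which 3 were kept at 5 mmol/L glucose (normal glucose) and 3 at 20 mmol/L (high glucose), both for 48 hours. No allele or transgene is given for either group. The labels describe a pool of 4 to 6 mice, aged 2 to 3 months, for a cell isolation with CD31 beads, and do not say whether the 3 cultures of a group came from separate isolations. The study gives its sample number for this experiment per group of mice, without saying how cultures and mice correspond. P values measure the spread between these cultures, which may in part be technical. The total counts lay between 120192466 and 146881356 per library.

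The endothelial label was checked against marker genes. Pecam1, which encodes CD31, had 0.128 ± 0.0378 CPM (counts scaled to a library of 1e+06, with edgeR's TMM factors) in normal glucose and 0.103 ± 0.0359 CPM in high glucose (SD, n = 3), from between 9 and 19 counts per library. A floor of 3 counts per library corresponds to between 0.0204 and 0.0250 CPM. Of 15 endothelial markers, 4 (Tie1, Robo4, Cldn5 and Emcn) were too low to be tested. Tie1, Robo4 and Cldn5 had at most 4 counts in any library, so these transcripts were at or near 0. Other endothelial markers were measured at higher levels in normal glucose, among them Eng at 155 ± 12.3 CPM, Flt1 at 55.3 ± 2.06 CPM, Egfl7 at 11.1 ± 0.740 CPM, Kdr at 4.96 ± 0.457 CPM and Cdh5 at 1.80 ± 0.0797 CPM. Of the 11 tested, 3 were called lower (Cdh5 at -1.03, Flt1 at -0.53 and Egfl7 at -0.23 on the log2 scale). Another 3 were called higher (Plvap at 0.44, Tek at 0.66 and Erg at 1.45). Of all tested genes, 14.5% were called lower and 16.9% higher. Erg had between 2 and 15 counts per library and was called in 5 of the 17 alternative analyses described below, and Egfl7 in 12. Robo4 was at 0 in every normal glucose library and Tie1 in every high glucose library. The summed endothelial markers reached 220.3 to 247.7 CPM in normal glucose and 200.5 to 205.7 CPM in high glucose. The 10 fibroblast markers reached 38300 to 41460 CPM in normal glucose and 70640 to 75590 CPM in high glucose, and 9 of them were called higher and 1 lower. The 7 mural markers summed to between 881.2 and 1008 CPM and the 6 keratinocyte markers to at most 5.041 CPM in these libraries. Of 6 mural markers tested, 2 were called lower (Cspg4 and Acta2) and 1 higher (Rgs5). Of 3 keratinocyte markers tested, 1 was called higher (Krt5), from at most 23 counts per library. The 6 macrophage markers summed to 17.29 to 19.41 CPM in normal glucose and 26.8 to 27.69 CPM in high glucose, with Ptprc and Adgre1 at 0 in every high glucose library. Cd14 alone of these was called higher, from 9.47 to 21.1 CPM. Csf1r and Cd68 were called lower (-0.73 and -0.46 on the log2 scale) and Lyz2 was not called. The call of Cd68 was kept in 7 of the 17 alternative analyses, and that of Csf1r in all 17. Reads of mitochondrial genes took 0.790% to 0.945% of the counts in normal glucose and 0.645% to 0.789% in high glucose. The part of these differences in the results on mitotic genes was not tested. In bulk samples, fewer dividing cells and less RNA per dividing cell cannot be told apart.

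FOXM1 binds DNA through a forkhead domain and, late in the cell cycle, works with B-MYB and the MuvB complex to raise genes needed for G2 and mitosis. Cyclin B1 and CDK1 form the kinase that starts mitosis. PLK1 and the Aurora kinases build the spindle, and BUB1, BUBR1 (the product of Bub1b) and MPS1 (the product of Ttk) hold back anaphase until chromosomes are attached. NEK2 separates the centrosomes. Promoters of such genes are known for CCAAT boxes, which NF-Y binds, and for a cell cycle genes homology region (CHR), which MuvB complexes bind.

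Promoter windows from RefSeq (GRCm38.p6) reach from 250 bases before to 50 bases after the annotated start, and 8 of the 10 genes had one. They were searched on both strands for CCAAT, for the CHR letters TTTGAA, for the forkhead core TAAACA and for E2F sites spelled TTTGGCGC, TTTCCCGC, TTTGCCGC or TTTCGCGC. A CCAAT box was found in 8 of the 8 windows, and in 37.4% of the 32851 mouse promoter windows. TTTGAA was found in 5 of the 8, in Plk1, Aurka, Bub1b, Ttk and Cdk1, and in 17.9% of all windows. The windows of genes tested here held CCAAT in 37.4% and TTTGAA in 12.5%. TAAACA was present in the window of Ccnb1 alone among the 8, on the opposite strand, and an E2F site in that of Cdk1 alone, against 13.4% and 2.26% of all windows. No match overlapped another. These are matches of letters, which do not show that a factor binds there. No other spelling of the CHR was searched, so a window without TTTGAA is not shown to lack a CHR. Positions count from 1 at the annotated start, with negative positions before it.

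The windows of 5 genes are shown from 150 bases before to 50 bases after the start, 5′ to 3′ on the strand of the gene, since they span the smallest and largest decreases described below. Capitals mark CCAAT boxes (or ATTGG, the same box on the other strand) and TTTGAA. Plk1 lies at chr7:122159285-122159484 (plus strand), Aurka at chr2:172370521-172370720 (minus strand), Cdk1 at chr10:69352863-69353062 (minus strand), Nek2 at chr1:191821323-191821522 (plus strand) and Ccnb1 at chr13:100786437-100786636 (minus strand).
Plk1: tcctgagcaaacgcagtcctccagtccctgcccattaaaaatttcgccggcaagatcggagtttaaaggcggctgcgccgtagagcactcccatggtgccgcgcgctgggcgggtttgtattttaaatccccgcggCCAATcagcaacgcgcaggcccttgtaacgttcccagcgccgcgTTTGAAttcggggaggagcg
Aurka: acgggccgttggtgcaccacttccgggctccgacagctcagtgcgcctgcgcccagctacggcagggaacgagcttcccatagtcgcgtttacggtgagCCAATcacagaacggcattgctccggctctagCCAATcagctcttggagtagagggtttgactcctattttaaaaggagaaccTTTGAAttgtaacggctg
Cdk1: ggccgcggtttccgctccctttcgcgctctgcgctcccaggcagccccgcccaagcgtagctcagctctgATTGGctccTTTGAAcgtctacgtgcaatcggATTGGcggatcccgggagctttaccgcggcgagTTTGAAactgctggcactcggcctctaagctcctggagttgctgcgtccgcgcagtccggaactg
Nek2: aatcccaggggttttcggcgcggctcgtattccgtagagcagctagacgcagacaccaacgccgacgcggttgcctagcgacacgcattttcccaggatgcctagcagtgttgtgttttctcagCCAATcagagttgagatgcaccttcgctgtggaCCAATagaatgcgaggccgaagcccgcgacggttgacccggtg
Ccnb1: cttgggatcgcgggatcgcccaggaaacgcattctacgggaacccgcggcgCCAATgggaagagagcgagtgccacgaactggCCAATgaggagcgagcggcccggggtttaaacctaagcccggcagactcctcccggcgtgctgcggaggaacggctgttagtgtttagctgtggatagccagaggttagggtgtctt

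In Plk1, CCAAT begins 14 bases before the start and TTTGAA at position 31. In Aurka, CCAAT boxes begin at positions -51 and -19 and TTTGAA at position 33. Cdk1 has TTTGAA at positions -71 and -15, with CCAAT boxes on the opposite strand at -80 and -48. Nek2 has CCAAT at -26 and 8, and Ccnb1 at -99 and -67, without TTTGAA. Of the 15 CCAAT boxes in the 8 windows, 13 began within 120 bases before the start.

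**Figure D1:**
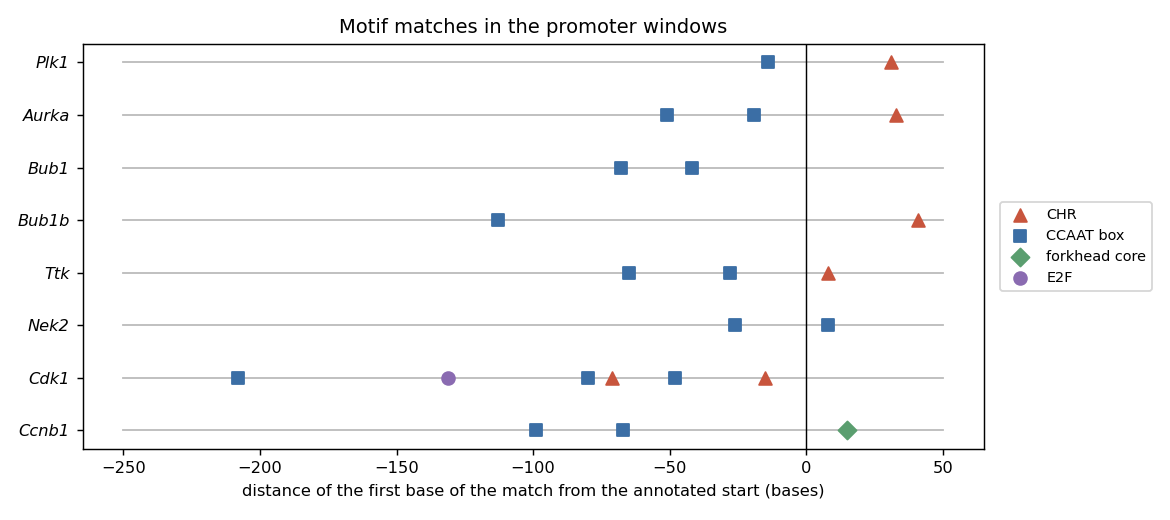
Motif matches in the promoter windows of the 8 genes with a RefSeq window. Each line is a promoter, the horizontal axis gives the distance of the first base of a match from the annotated start in bases, and the symbols stand for the 4 motifs. CCAAT boxes occur in all 8 windows and TTTGAA in 5.

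The levels of all 10 genes were lower in high glucose. All 10 were called lower, meaning an adjusted P under the threshold of 0.05 by the quasi-likelihood test of edgeR, fitted over 19015 genes, of which 14.5% were called lower. Library size scaling in place of TMM gave 4884 lower and 1819 higher genes over the whole table, against 2757 and 3212, and left all 10 genes called lower. In all 10, every high glucose culture lay below every normal glucose culture, a pattern shared by 21.3% of tested genes. The median log2 fold change of the 10 genes was -1.14, against 0.0062 over all tested genes. Together they summed to 160 CPM, 167 CPM and 170 CPM in normal glucose and to 82.9, 82.7 and 82.8 CPM in high glucose. The smallest P value that an exact permutation test of 3 cultures against 3 allows is 0.1, and each gene reached it (two-sided).

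**Figure D2:**
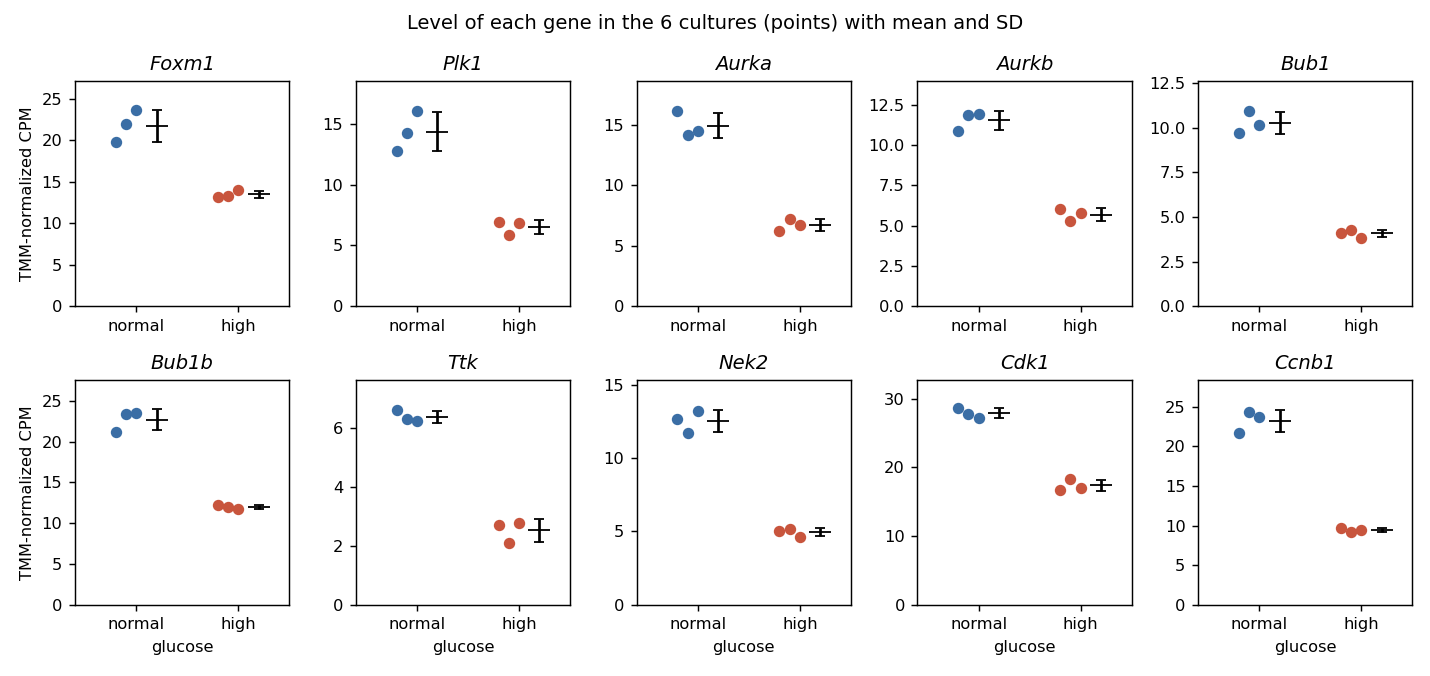
Levels of the 10 genes in each culture, as TMM-normalized CPM on axes that start at 0. Points are replicates 1 to 3 from left to right, and bars give the mean and SD of the 3 cultures. The groups do not overlap for any of the 10 genes.

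Foxm1 (chromosome 6 of GRCm38, 128362967 to 128376146, plus strand) was measured at 19.8, 21.9 and 23.6 CPM in the normal glucose cultures, and at 13.2, 13.3 and 14.0 CPM in those with high glucose. The decrease was one of the smaller ones among the 10 genes, with a log2 fold change of -0.69 (SE 0.072, adjusted P = 5.2e-05). A larger decrease was seen for 967 of the 2757 called genes in that direction. Foxm1 shares 144 exonic bases with Tex52 and 97 with Gm44596 on the same strand, and these had at most 6 and 0 counts in a library.

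Cdk1 and Ccnb1 encode the kinase and the cyclin of the same complex, and both fell. Cdk1 (chromosome 10, 69335146 to 69352938, minus strand) was measured at 28.6, 27.7 and 27.2 CPM in the normal glucose cultures, and at 16.7, 18.3 and 17.1 CPM in those with high glucose. This gives a log2 fold change of -0.68 (SE 0.056, adjusted P = 9.7e-06). The cyclin gene Ccnb1 (chromosome 13, 100778650 to 100786570, minus strand) was measured at 21.6, 24.3 and 23.7 CPM in the normal glucose cultures, and at 9.74, 9.24 and 9.49 CPM in those with high glucose. Its high glucose levels were tightly grouped, and the log2 fold change was -1.29 (SE 0.065, adjusted P = 3.4e-07). The pseudogene Ccnb1-ps, whose reads could be shared with Ccnb1, had at most 76 counts in a library, against at least 1074 for Ccnb1.

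Plk1 (chromosome 7, 122159439 to 122169873, plus strand), the polo-like kinase of mitotic entry and spindle assembly, was measured at 12.8, 14.2 and 16.0 CPM in the normal glucose cultures, and at 6.89, 5.87 and 6.80 CPM in those with high glucose. Its log2 fold change was -1.14 (SE 0.099, adjusted P = 1.4e-05). Among the Aurora kinases, Aurka acts at centrosomes and spindle poles and Aurkb at centromeres. Aurka (chromosome 2, 172356190 to 172370535, minus strand) was measured at 16.1, 14.2 and 14.5 CPM in the normal glucose cultures, and at 6.22, 7.21 and 6.75 CPM in those with high glucose. The log2 fold change of Aurka was -1.15 (SE 0.082, adjusted P = 3.7e-06). Aurkb (chromosome 11, 69045647 to 69051664, plus strand) was measured at 10.9, 11.8 and 11.9 CPM in the normal glucose cultures, and at 6.03, 5.26 and 5.77 CPM in those with high glucose. For Aurkb the log2 fold change was -1.02 (SE 0.081, adjusted P = 8.0e-06). The mean levels changed by -54.5% for Plk1, by -55.0% for Aurka and by -50.7% for Aurkb.

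The 3 checkpoint genes all fell. Bub1 (chromosome 2, 127801122 to 127831865, minus strand), a kinase that recruits other checkpoint proteins to kinetochores, was measured at 9.70, 10.9 and 10.1 CPM in the normal glucose cultures, and at 4.11, 4.27 and 3.84 CPM in those with high glucose. The log2 fold change of Bub1 was -1.33 (SE 0.084, adjusted P = 1.6e-06). Bub1b (chromosome 2, 118598211 to 118641591, plus strand), a subunit of the complex that inhibits CDC20, was measured at 21.2, 23.4 and 23.5 CPM in the normal glucose cultures, and at 12.2, 11.96 and 11.7 CPM in those with high glucose. The log2 fold change of Bub1b was -0.92 (SE 0.063, adjusted P = 2.6e-06). Ttk (chromosome 9, 83834689 to 83872389, plus strand), the kinase that starts checkpoint signalling, was measured at 6.59, 6.30 and 6.22 CPM in the normal glucose cultures, and at 2.70, 2.08 and 2.78 CPM in those with high glucose. Ttk was the least abundant of the 10 genes, from between 242 and 893 counts per library, and had a log2 fold change of -1.33 (SE 0.12, adjusted P = 1.4e-05).

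Nek2 (chromosome 1, 191821444 to 191833050, plus strand), the kinase of centrosome separation, was measured at 12.7, 11.7 and 13.2 CPM in the normal glucose cultures, and at 5.04, 5.18 and 4.64 CPM in those with high glucose. Its log2 fold change of -1.34 (SE 0.081, adjusted P = 1.1e-06) was the largest decrease among the 10 genes, and 236 called genes had larger ones. The exons of Nek2 share 298 bases with Gm38037 on the opposite strand, which had between 24 and 59 counts in these libraries. Plk1 shares 156 bases with Gm44985 in the same way, which had at most 5 counts. Whether counting used strand is not given in the sources used here.

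Ratios of counts within a library do not depend on the scaling between libraries, and 12 were compared: each of the 9 genes over Foxm1, and the pairs Aurka over Aurkb, Bub1 over Bub1b and Ccnb1 over Cdk1. Measured against Foxm1, 8 of the 9 genes were lower in all high glucose cultures than in any normal glucose culture. Of 19014 tested genes, 2.48% had this pattern in their ratio to Foxm1. Foxm1 itself fell, so the pattern marks genes that fell more than Foxm1. The log2 ratio to Foxm1 differed between the groups by between -0.66 for Ttk and -0.23 for Bub1b among these 8 (two-sided exact permutation test, P = 0.1 each, the smallest possible, and 0.12 after Benjamini-Hochberg adjustment over the 12 ratios). Cdk1 was the exception. Its log2 ratio to Foxm1 was 0.53, 0.34 and 0.20 in the normal glucose cultures against 0.34, 0.46 and 0.29 in high glucose, so the groups overlapped and the means differed by 0.004 (exact permutation P = 0.9). The SDs of the ratio were 0.17 and 0.085, and a P value of this size does not show that the ratio was the same.

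Within the pairs, the ratio of Ccnb1 to Cdk1 was lower in each high glucose culture than in any normal glucose culture, and so was that of Bub1 to Bub1b. With 3 cultures a group, neither could pass the threshold. The log2 ratio of Ccnb1 to Cdk1 was -0.40, -0.19 and -0.20 in the normal glucose cultures against -0.78, -0.98 and -0.85 in high glucose, a difference of -0.61 between the means (two-sided exact permutation test, P = 0.1). The ratio of Bub1 to Bub1b was -1.13, -1.104 and -1.22 in the normal glucose cultures against -1.58, -1.49 and -1.61 in high glucose on the log2 scale, a difference of -0.41 (P = 0.1 in the same exact test). For Aurka over Aurkb the groups overlapped, with log2 ratios of 0.57, 0.26 and 0.29 in the normal glucose cultures against 0.046, 0.45 and 0.23 in high glucose (exact permutation P = 0.4).

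**Figure D3:**
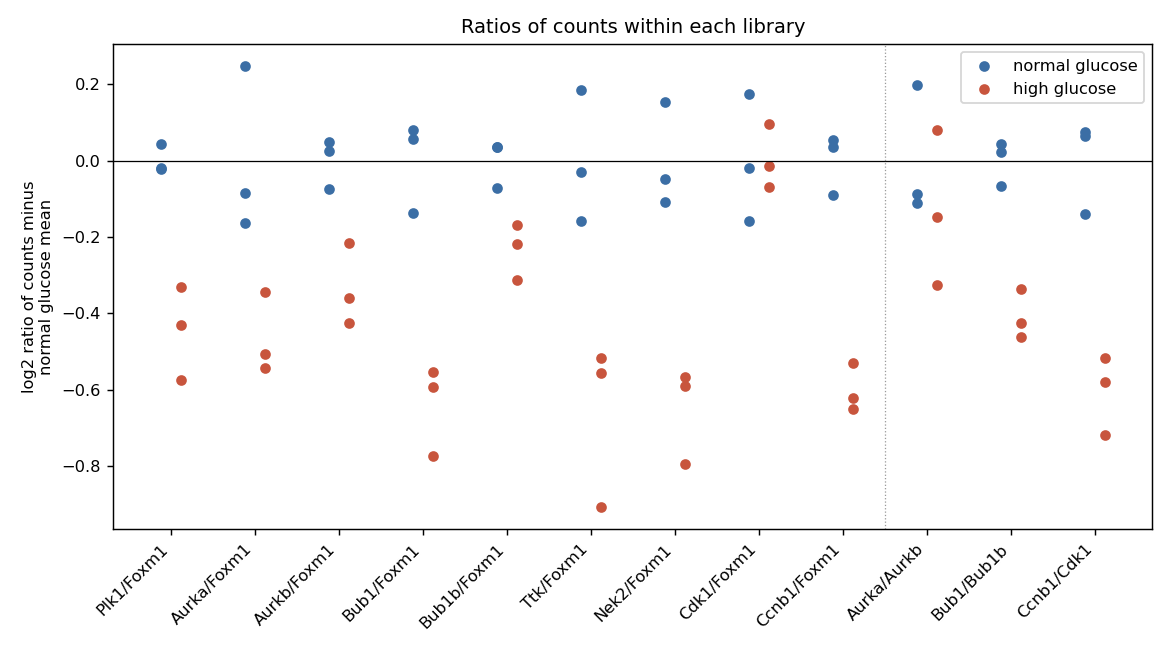
Log2 ratios of counts within each library, minus the mean of the normal glucose cultures. Points are cultures, 9 ratios to Foxm1 lie left of the dotted line and 3 pairs right of it. Only Cdk1 over Foxm1 and Aurka over Aurkb overlap between the groups.

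Levels were compared between genes per kilobase of merged annotated exons. In normal glucose the order was Plk1 (6.52 ± 0.735 CPM per kb), Aurka (5.91 ± 0.412), Cdk1 (5.65 ± 0.146), Ccnb1 (5.50 ± 0.331), Bub1b (5.31 ± 0.310), Aurkb (3.92 ± 0.200), Foxm1 (3.79 ± 0.337), Nek2 (2.77 ± 0.164), Bub1 (2.35 ± 0.141) and Ttk (1.29 ± 0.0399; SD, n = 3). The first 5 overlapped as neighbours, as did Aurkb and Foxm1, whereas Bub1b and Aurkb, and each step from Foxm1 down, were separated in all cultures. In high glucose Cdk1 stood first, at 3.52 ± 0.165 CPM per kb, above every culture of the next gene. Plk1 (2.97 ± 0.256), Bub1b (2.80 ± 0.0603) and Aurka (2.66 ± 0.194) followed and overlapped as neighbours, then Foxm1 (2.34 ± 0.0723) and Ccnb1 (2.25 ± 0.0591), which also overlapped. Aurkb (1.93 ± 0.132) came next. Nek2 (1.097 ± 0.0622), Bub1 (0.936 ± 0.05) and Ttk (0.513 ± 0.0779 CPM per kb) kept the last 3 positions. Merged exons include those of minor transcripts, so the length of a gene with many of them is overstated.

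**Figure D4:**
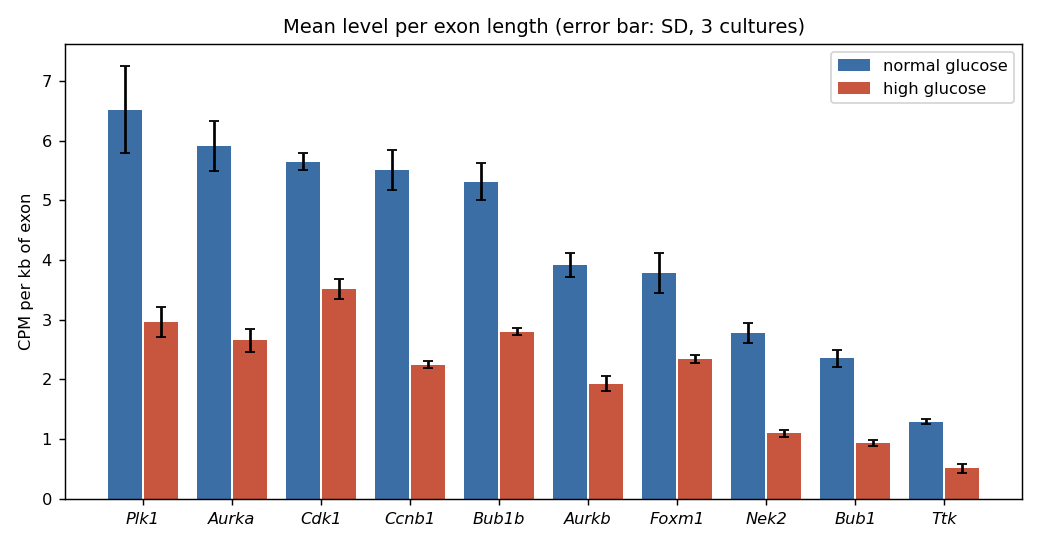
Mean level of each gene in CPM per kb of merged exons, with SD over 3 cultures, in order of the normal glucose level. Bars start at 0. Plk1 is first in normal glucose and Cdk1 in high glucose, and Ttk is last in both.

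The partners of these kinases were described by lists written from general knowledge. Of 8 Aurora and Plk1 partners, 7 were called lower and none higher, where 14.5% and 16.9% of all tested genes were. Their median log2 fold change was -0.89. Birc5, the survivin subunit that places Aurora B at centromeres, fell from 12.8 ± 1.90 to 5.02 ± 0.501 CPM (SD, n = 3), with a log2 fold change of -1.36 (SE 0.12, adjusted P = 1.3e-05). Tpx2, the activator of Aurora A, fell from 36.4 ± 0.270 to 17.9 ± 0.227 CPM, with a change of -1.02 on that scale (SE 0.049, adjusted P = 2.3e-07). Cep192, a centrosome scaffold for Aurora A and Plk1, had 27.7 ± 3.77 and 27.3 ± 1.007 CPM and was not called (adjusted P = 0.868).

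Of 16 genes around the cyclin B and Cdk1 switch, 10 were called lower and none higher, against 14.5% and 16.9% of all tested genes. The phosphatase gene Cdc25c, whose product activates CDK1, went from 3.62 ± 0.394 to 1.32 ± 0.245 CPM and its log2 fold change was -1.46 (SE 0.15, adjusted P = 3.6e-05). Ccnb2, the other B-type cyclin expressed in dividing cells, went from 18.3 ± 0.720 to 6.77 ± 0.307 CPM and fell by 1.43 on the log2 scale (SE 0.068, adjusted P = 2.3e-07). The most abundant members, Ensa and Arpp19, encode inhibitors of the phosphatase PP2A and had log2 fold changes of -0.016 and -0.13 that did not pass (adjusted P = 0.853 and 0.112).

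Among 12 spindle checkpoint partners, 7 were called lower and none higher, where 14.5% and 16.9% of all tested genes were. Library size scaling gave 11 lower. Ndc80 and Knl1, kinetochore proteins at which the checkpoint kinases work, had log2 fold changes of -1.17 and -1.14 (adjusted P = 3.7e-06 and 3.7e-05). Zwint and Bub3, the most abundant of the 12, had log2 fold changes of -0.088 and -0.095 (adjusted P = 0.229 and 0.176). BUB3 is the binding partner of BUB1 and BUBR1, and Bub3 had 75.9 ± 0.900 CPM in normal glucose and 71.0 ± 2.42 CPM in high glucose.

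The anaphase-promoting complex (APC/C) ends mitosis by marking cyclin B for destruction. Of 21 genes of the complex and of mitotic exit, 6 were called lower and 1 higher. Over all tested genes, 14.5% were called lower and 16.9% higher. The median log2 fold change of the 21 was -0.046. The activator gene Cdc20 and the ubiquitin-conjugating enzyme gene Ube2c had log2 fold changes of -1.28 and -1.21 (adjusted P = 1.3e-06 and 7.8e-07). The core subunit genes Anapc5 and Anapc2, the most abundant of the list, had log2 fold changes of 0.11 and -0.038 (adjusted P = 0.0926 and 0.653). Anapc1 was the gene called higher, by 0.28 (adjusted P = 0.0277), and it was called in 9 of 17 alternative analyses. The call was lost with library size scaling (adjusted P = 0.157), without the filter on low counts, with the GC and length trend removed (with or without the replicate block), without normal glucose replicate 3 and without each of the 3 high glucose replicates.

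Other kinases of the cell cycle followed in part. Of 16, 11 were called lower and none higher, where 14.5% and 16.9% of all tested genes were. Pbk and Melk, kinases expressed in dividing cells, had log2 fold changes of -1.30 and -1.16 (adjusted P = 6.1e-06 and 6.6e-06). Lats2 and Lats1, the Hippo pathway kinases and the most abundant of the 16, had log2 fold changes of 0.066 and 0.20 (adjusted P = 0.487 and 0.0895), neither called. The number called higher was 2, Lats1 and Cdc7, without normal glucose replicate 2. It was 1 with the replicate block (Lats1), and 1 with limma voom and with the GC and length trend removed (Cdc7).

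Relatives in the same kinase families did not share 1 direction. Of 21, 17 were high enough to be tested, and 5 were called lower and 3 higher, where 14.5% and 16.9% of all tested genes were. With library sizes alone the counts became 9 lower and 1 higher. Without high glucose replicate 3 the counts were 3 lower and 1 higher, and without high glucose replicate 1, 1 was higher. Plk2 and Plk3, stress-responsive relatives of Plk1, fell from 56.8 ± 2.40 to 28.4 ± 1.06 CPM and from 10.6 ± 0.367 to 5.94 ± 0.496 CPM (adjusted P = 7.1e-07 and 3.7e-05). Nek7 was called lower, with a log2 fold change of -0.35 (adjusted P = 0.00146), and kept that call in all 17 alternatives. Nek6 and Nek9, the most abundant of the list, had log2 fold changes of 0.32 and 0.30 (adjusted P = 9.1e-04 and 0.0121). Under library size scaling these were 0.21 and 0.18. Nek9 was not called with that scaling (adjusted P = 0.0826), nor without high glucose replicate 1 or replicate 3. Nek6 was not called once the GC and length trend was removed, with or without the replicate block.

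Phosphatase genes that oppose mitotic kinases mostly did not pass the test, where 68.6% of all tested genes did not. Of 18, 1 was called lower and 1 higher, which became 8 lower and none higher with library sizes alone, 3 lower with upper quartile normalization and 2 lower with DESeq2. Cdca2, which directs the phosphatase PP1 to chromosomes in anaphase, had a log2 fold change of -1.01 (SE 0.077, adjusted P = 5.6e-06). Ppp2ca and Ppp1ca, catalytic subunits and the most abundant of the 18, had log2 fold changes of 0.0078 and -0.074 (adjusted P = 0.926 and 0.272). Ppp2r5a was called higher by 0.16 (adjusted P = 0.0448), and in 4 of 17 alternatives. Leaving out any 1 culture ended this call.

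FOXM1 works with the MYB-MuvB complex, which shares subunits with the repressive DREAM complex. Of 12 genes of these complexes, 3 were called lower and 1 higher, and 8 were not called, where 68.6% of all tested genes were not called. The median log2 fold change over the 12 was -0.058. Library size scaling gave 6 lower, and 2 were called higher with edgeR's exact test and without normal glucose replicate 2. Without normal glucose replicate 3, high glucose replicate 1 or high glucose replicate 3, 1 gene was called lower. Mybl2, which encodes B-MYB, fell from 3.52 ± 0.270 to 1.97 ± 0.284 CPM, with a log2 fold change of -0.84 (SE 0.12, adjusted P = 5.7e-04), and was called in all 17 alternatives. Lin9, a MuvB subunit, changed by -0.38 on the log2 scale (adjusted P = 0.0225), called in 13 of 17 and lost without normal glucose replicate 3 and without each of the high glucose replicates. Rbl1 was also called lower, at -0.31 (adjusted P = 0.0388), and was called in 12 of 17. Rbl2, which encodes the p130 subunit of the repressive form, rose by 0.30 (adjusted P = 0.00493) and was called in all 17. Rbbp4 and Tfdp1, the most abundant, had log2 fold changes of -0.081 and -0.063 (adjusted P = 0.395 and 0.371). With library size scaling, Rbbp4, Tfdp1, Arpp19, Zwint, Bub3 and Ppp1ca were called lower, and the values of Anapc5, Lats2 and Ppp2ca turned negative without a call.

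Among 43 other forkhead genes, 27 were tested, and 3 were called lower and 8 higher, where 14.5% and 16.9% of all tested genes were. With library size scaling or with the GC and length trend removed, 5 were higher. Foxp2 rose from 3.68 ± 0.241 to 6.25 ± 0.163 CPM (log2 fold change 0.76, adjusted P = 8.9e-05) and Foxo4 from 29.8 ± 1.45 to 40.1 ± 0.635 CPM (0.43, adjusted P = 1.9e-04). Foxd3 changed by -0.35 on the log2 scale (adjusted P = 0.0475) and was called in 9 of 17 alternatives, not without normal glucose replicate 2 or 3, nor without high glucose replicate 2 or 3. The number of forkhead genes called lower was 1 without normal glucose replicate 2, without high glucose replicate 3, with DESeq2 and with the replicate block. Foxo3, the most abundant forkhead gene, changed by 0.21 on the log2 scale (adjusted P = 0.0275), called in 8 of 17 alternatives and lost without normal glucose replicate 3 and without each high glucose replicate. Foxk2 was not called, at 0.12 on that scale (adjusted P = 0.120).

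The inhibitors of cyclin-dependent kinases and p53 genes divided, with 4 of 11 called lower and 4 higher. Over all tested genes, 14.5% were called lower and 16.9% higher. Cdkn1a, which encodes the inhibitor p21, fell from 546 ± 27.0 to 328 ± 7.63 CPM (log2 fold change -0.73, adjusted P = 4.7e-06) and Ccng1, a p53 target, from 461 ± 20.9 to 256 ± 13.8 CPM (-0.85, adjusted P = 3.1e-06). Cdkn1c, which encodes the inhibitor p57, rose from 20.4 ± 1.52 to 36.1 ± 1.22 CPM (0.83, adjusted P = 6.7e-06), and Gadd45a rose by 0.37 (adjusted P = 0.00146).

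Of 2 further lists set beside the 10 genes, the 25 other late cell cycle genes were all called lower. Their median log2 fold change was -1.08, and 14.5% of all tested genes were called lower. Kif20a and Cep55, which act in cytokinesis, had log2 fold changes of -1.34 and -1.31 (adjusted P = 1.4e-07 and 1.8e-06), and the abundant Psrc1 and Top2a -0.73 and -0.88. Of 15 origin licensing and replication genes, 14 were called lower with a median of -0.67. Mcm5 and Cdc6, which load the replicative helicase or belong to it, had log2 fold changes of -1.002 and -0.98, and Pcna and Mcm4 of -0.26 and -0.30. The medians of these lists were not compared by a test.

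**Figure D5:**
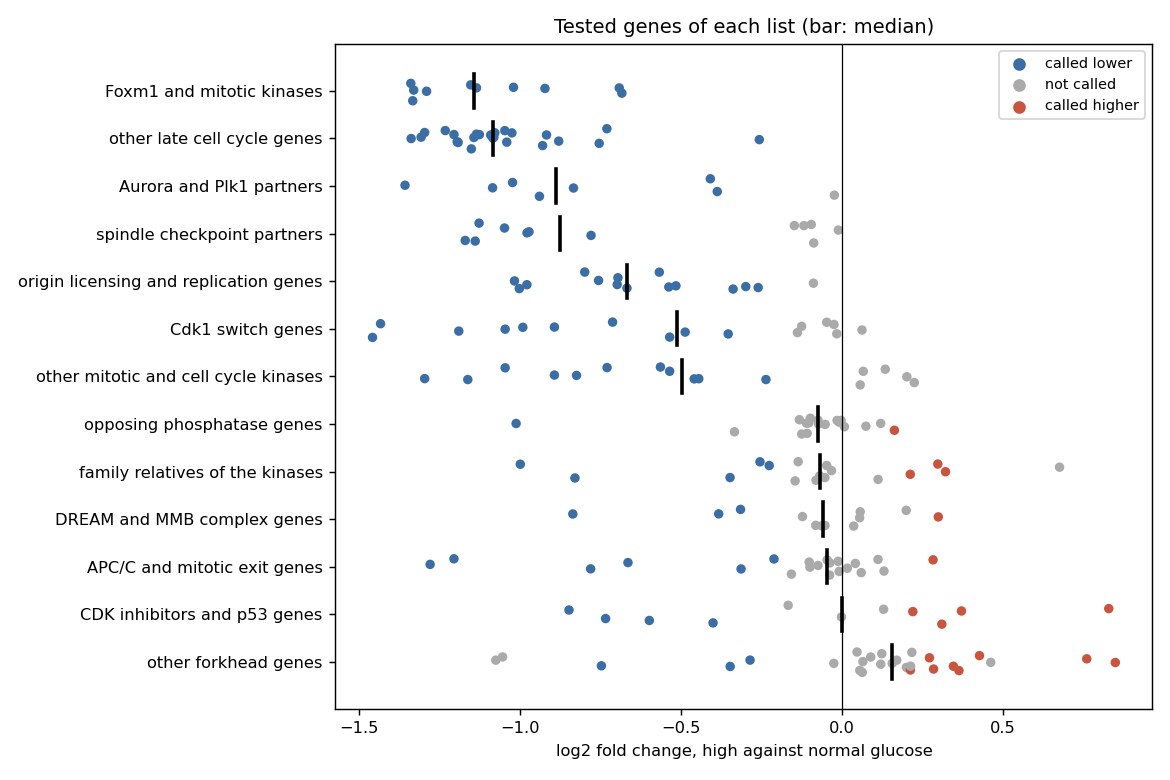
Log2 fold changes, high against normal glucose, of the tested genes of each list, ordered by the median (black bar). Blue points were called lower, red points higher and grey points were not called at an adjusted P value under 0.05. The 10 genes have the lowest median, -1.14, followed by the other late cell cycle genes at -1.08.

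Over the 6 cultures, the log2 CPM of Foxm1 was most like that of Glt8d2, Igtp, Gm7336, Gm12033 and Ppfibp2 of the 12478 genes whose log2 CPM averaged 1 or more (Pearson r between 0.997 and 0.999 across cultures, n = 6). The closest of the 9 mitotic genes was Plk1, at place 48 with r = 0.990, and the farthest was Aurka, at place 694 with r = 0.949. All these correlations include the difference between the 2 groups and share the same libraries, so they describe these cultures and are given without a P value. The log2 fold changes of the 5 genes lay between -0.47 and -0.13, and that of Igtp did not pass the test (adjusted P = 0.0604).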

How the data were processed

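RNA was measured in 6 cultures, 3 per group, assigned by their titles. Per the study's methods, the authors used Trimmomatic for trimming, HISAT2 for alignment (GRCm38) and StringTie for counting. They deposited whole-number counts per gene, without normalization. Versions, the annotation release and use of strand are not given in the sources used here. PCR copies and both reads of a pair may be counted, so floors cover counting error only. From the counts, R 4.3.3 with edgeR 4.0.16 was used: filterByExpr (minimum count 10, minimum total 15), TMM, the quasi-likelihood test and Benjamini-Hochberg adjustment over all tested genes, with a threshold of 0.05 and no minimum fold. The standard error (SE) of a log2 fold change comes from the test statistic. The fit was tested on simulated data.

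Symbols, positions and exon lengths came from GENCODE M21, which held 55141 of the 55487 identifiers. The 10 genes, the lists, the markers and the motifs were chosen with earlier results of these data known, and some genes stand in more than 1 list. From each list the text names the called genes with the 2 largest decreases and increases (log2 CPM averaging 1 or more), and the 2 most abundant genes. Nek7 and Rbl1 are named in addition. A gene that this rule names is not reported here. The 17 alternative analyses were other normalizations (RLE, upper quartile, library size), no filter, DESeq2 1.42.0, limma voom 3.58.1, edgeR's exact test, halved counts, the replicate number as a block, removal of the trend that a library showed with GC content and transcript length (mgcv 1.9-3) without and with the block, and each culture left out. Replicates of a group differed by more than sampling noise (chi-square per degree of freedom of at least 9.03).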

Additional observations from a re-analysis of the deposited data

How the results depend on the processing

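All 10 genes remained called lower in each of the 17 alternative analyses, and their median log2 fold change lay between -1.26 (library size scaling) and -1.12. Foxm1 ranged from -0.81 to -0.64 and its adjusted p from 2.0e-14 to 6.2e-04. Library size scaling gave the lowest value of each gene and put the median of all genes at -0.109, from 0.0062. Where 14.5% of all tested genes were called lower and 16.9% higher, the 194 tested list genes gave 93 lower and 18 higher. The number called higher moved to 10 with library size scaling, and lay between 11 and 19 with each culture left out, with 11 without high glucose replicate 1 and without high glucose replicate 3. The cause was not tested.

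The correlation across genes between the deviations of same-numbered cultures was -0.0248, 0.00377 and 0.0127. No pairing by number was seen, which does not exclude one. With the replicate block all 10 genes were called lower with a median of -1.14, Foxm1 at -0.69 (adjusted p = 2.5e-04), and the list genes gave 89 lower and 17 higher. Among named genes of the lists and markers, Foxd3, Ppp2r5a, Erg, Egfl7 and Cd68 were then not called and Lats1 was called higher.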
